A study of Homo sapiens with 117 samples.

Results

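The sites described here are 1347 regions that ranked among the strongest CTCF peaks of IDH1 WT cells after DNA double-strand breaks (DSBs) and not among those of IDH1 R132H cells. From each of the 4 IDH1 WT +DSB and the 4 IDH1 R132H +DSB lists of CTCF ChIP-seq peaks, the 20000 peaks with the highest fold over background were taken, and peaks that shared 1 bp or more were merged. This gave 24944 merged sites, of which 1347 were in all 4 WT lists and in no R132H list (WT-only sites, 5.4% of the merged sites), 993 showed the mirror pattern (R132H-only sites, 3.98%) and 14791 were in all 8 lists. The WT-only sites were chosen on their strength in these 8 lists, so their values there are given as a description with no test.

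The lists came from DIvA cells, an osteosarcoma line (U2OS) with a hormone-controlled AsiSI, a restriction enzyme joined to part of the estrogen receptor. 4-OHT (4-hydroxytamoxifen) brings the enzyme into the nucleus, where it cuts its recognition sequence. All cells of these 24 lists carried this system. The 8 groups were IDH1 WT cells without 4-OHT (−DSB, 3 lists) and with 300 nM 4-OHT for 4 h (+DSB, 4 lists), IDH1 R132H cells without (4 lists) and with 4-OHT (4 lists), and IDH1 R132H cells with either the TET1 catalytic domain (TET1 CD, 2 lists −DSB and 2 lists +DSB) or its catalytically dead form (TET1 dCD, 3 lists −DSB and 2 lists +DSB). IDH1 WT or R132H was introduced with lentivirus, so the R132H cells are a model that expresses the mutant in an established line. The first WT −DSB replicate was not analysed here.

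CTCF is a zinc finger protein that binds a long DNA motif and, together with cohesin, sets the ends of chromatin loops. Its binding at many sites is lower when CpG dinucleotides in the motif are methylated. IDH1 R132H makes D-2-hydroxyglutarate, which inhibits the TET dioxygenases that start the removal of methyl groups from cytosine. The comparison of WT and R132H cells therefore asks where CTCF sits when TET activity is intact or inhibited during the response to DSBs. The TET1 CD cells ask the same with TET1 activity supplied, and the TET1 dCD cells, with the dead form, are their control. A peak list gives an average over all cells of a culture, so CTCF on fewer copies of a site and weaker CTCF on every copy cannot be told apart.

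The CTCF core motif was present at a minority of the WT-only sites. In 160 of the 1347 sites (11.9%), the 300 bp around the summit held it, a 12-base sequence searched on both strands, against 21.1% of all merged sites, 15.6% of R132H-only sites and 26.3% of the sites in all 8 lists. The motif lay within 50 bp of the summit at 159 of the 160, at a median distance of 10 bp. The 6 sites below, named by the nearest protein-coding gene, are among the strongest WT-only sites with the motif and are shown to let the motif be read in its surroundings. They are written on the strand of the motif (hg38), with the motif in capitals.
KSR1, chr17:27381159-27381218, minus strand: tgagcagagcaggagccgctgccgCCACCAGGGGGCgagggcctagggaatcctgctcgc
ANO1, chr11:69910224-69910283, plus strand: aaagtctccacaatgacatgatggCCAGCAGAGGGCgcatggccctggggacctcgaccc
UMPS, chr3:124492950-124493009, plus strand: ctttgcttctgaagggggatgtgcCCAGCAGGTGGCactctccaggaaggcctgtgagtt
TRAM2, chr6:52598403-52598462, minus strand: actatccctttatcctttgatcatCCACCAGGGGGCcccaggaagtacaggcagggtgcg
SPTB, chr14:64800209-64800268, plus strand: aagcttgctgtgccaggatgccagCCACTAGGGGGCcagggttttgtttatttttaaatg
SEMA4G, chr10:100969254-100969313, plus strand: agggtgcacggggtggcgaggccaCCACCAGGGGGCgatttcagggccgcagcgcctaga

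CpG dinucleotides were dense at many of the sites at promoters. The following 150 bp window is centred on the summit of the site at the promoter of CTCF itself, with every CpG in capitals (hg38, plus strand). It is shown because CTCF was the only gene of the lists examined here whose promoter was a WT-only site.
CTCF, chr16:67562765-67562914, plus strand: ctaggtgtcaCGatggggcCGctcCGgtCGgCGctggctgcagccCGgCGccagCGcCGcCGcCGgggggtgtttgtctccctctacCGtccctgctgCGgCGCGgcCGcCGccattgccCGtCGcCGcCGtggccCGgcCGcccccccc

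Some WT-only sites lay beside a sequence that AsiSI cuts. The windows below hold the AsiSI recognition sequence, in capitals, next to 3 of these sites, at SDK2, MYLIP and GINM1 (hg38). Which recognition sequences were cut in these cells was not measured in the lists.
SDK2, chr17:73645065-73645112, plus strand: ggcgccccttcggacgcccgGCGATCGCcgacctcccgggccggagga
MYLIP, chr6:16128787-16128834, plus strand: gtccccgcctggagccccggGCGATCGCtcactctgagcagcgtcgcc
GINM1, chr6:149566949-149566996, plus strand: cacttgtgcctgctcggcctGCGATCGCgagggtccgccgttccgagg

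Before the values, 3 properties of the lists bear on them. First, the run names written inside 9 of the 24 lists differed from the sample labels. All 3 lists labelled WT −DSB carried R132H −DSB names, all 4 labelled R132H −DSB carried WT −DSB names, and 2 of the 3 labelled TET1 dCD −DSB (replicates 1 and 2) carried TET1 CD +DSB names. The names of all 8 lists that chose the sites matched their labels. Groups here follow the labels, and the direction of every comparison that uses WT −DSB and R132H −DSB lists rests on them. Second, some lists were very close to each other. When reads at shared summits were compared, 9 pairs within a group differed by no more than counting noise (chi-square per degree of freedom 0.586 to 0.855, against 1.10 to 4.77 for the other 18 pairs), and the lists of such a pair entered the tests as 1 sample. This left 15 samples from the 24 lists, namely 2 WT −DSB, 3 WT +DSB, 3 R132H −DSB, 2 R132H +DSB, 1 TET1 CD −DSB, 1 TET1 CD +DSB, 2 TET1 dCD −DSB and 1 TET1 dCD +DSB. A value below 1 was not confined to pairs of 1 group. It occurred in 18 of the 249 pairs of lists from different groups, including 6 pairs of a WT −DSB with an R132H +DSB list (0.800 to 0.976), 4 of R132H +DSB with TET1 dCD +DSB (0.928 to 0.979), 3 of R132H −DSB with TET1 CD −DSB (0.936 to 0.978), 2 of WT −DSB with TET1 dCD +DSB (0.937 to 0.979), 2 of TET1 CD +DSB with TET1 dCD −DSB replicate 3 (0.818 to 0.934) and 1 of WT +DSB replicate 2 with R132H −DSB replicate 1 (0.981). Lists of different groups were kept as separate samples, so the 15 samples and the tests below do not allow for these pairs. TET1 dCD −DSB replicate 3 also stood apart from the other 2 lists of its group (4.64 and 4.77). Nothing in the labels says that replicates came from separate cultures, so the spread between them may be technical. The values above are for summits with a mean of at least 30 reads. With summits of 20 to 50 reads the total was again 15 samples, but the pairs changed. R132H +DSB replicates 1 and 2 (1.07) and the 2 TET1 dCD +DSB lists (1.03) then came apart. WT +DSB replicate 1 joined replicates 3 and 4 (0.757 and 0.973). R132H −DSB replicate 2 likewise joined replicates 3 and 4 of its group (1.005 and 0.991).

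Last, depth differed between groups. Depth was worked out from how finely the fold values of a list were spaced, for an assumed genome of 2.7 Gb, and is given in M (mega) reads. It was 70.9 to 84.6 M in WT +DSB and 23.7 to 34.6 M in R132H +DSB, so the 2 groups that chose the sites did not overlap. It was 22.7 to 35.1 M in WT −DSB, 44.3 to 63.2 M in R132H −DSB, 33.5 to 35.9 M in TET1 CD −DSB, 34.6 to 41.7 M in TET1 CD +DSB, 30.8 to 40.6 M in TET1 dCD −DSB and 26.6 to 27.9 M in TET1 dCD +DSB. The shortest peak of a list, which follows the fragment length, was 143 to 191 bp in WT +DSB and 121 to 127 bp in R132H +DSB.

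The WT-only sites were mostly sites of middle strength. By mean rank over the 4 WT +DSB lists, 18 sites were among the first 5000, 122 between 5000 and 10000, 509 between 10000 and 15000 and 698 between 15000 and 20000. Their median rank was 15842, 15666, 14571 and 14195 in WT +DSB replicates 1 to 4, and 28866, 29656, 24816 and 25550 in R132H +DSB replicates 1 to 4. To compare lists of unequal depth, the fold of a site was divided by the median fold of the sites in all 8 lists. The median of this relative fold was 0.720 to 0.798 over the WT +DSB lists and 0.213 to 0.238 over the R132H +DSB lists.

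CTCF was still called at nearly all of these sites in R132H cells, at a lower rank. In the R132H +DSB lists, 1305 of the 1347 sites overlapped a deposited peak of any strength in all 4 lists and 2 overlapped none in any list. The strongest R132H +DSB rank of a site was under 25000 at 885 sites and under 50000 at 1317, with a median of 23305. At the edge of the rule, the 3 members with the strongest R132H peaks had ranks of 20002, 20009 and 20012 there, and 3 sites just outside had ranks of 20000, 19999 and 19998. The 3 members with the weakest WT peaks had a weakest rank of 19997, 19995 and 19993.

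**Figure D1:**
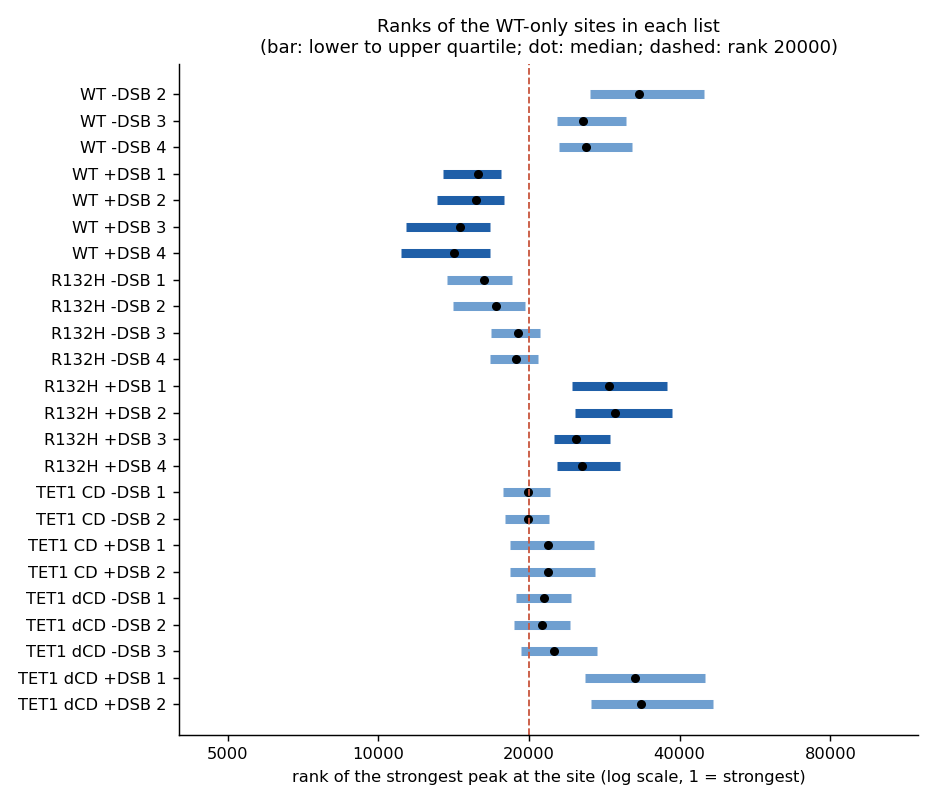
Rank of the strongest peak at the WT-only sites in each of the 24 lists, on a logarithmic x axis where 1 is the strongest peak. Bars run from the lower to the upper quartile over the sites with a peak, dots mark the median and the dashed line marks rank 20000. The medians lie to the left of the line in the WT +DSB and R132H −DSB lists and in TET1 CD −DSB, where they are 19901 and 19924, and to the right of it in the other groups.

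Promoters were common among the WT-only sites. The summit lay within 1000 bp of the start of a protein-coding transcript at 268 sites (19.9%), compared with 28 of 993 R132H-only sites (2.82%), 1740 of 14791 sites in all 8 lists (11.8%) and 12.01% of all merged sites. Of the other WT-only sites, 83 were in an exon of a protein-coding gene, 485 in an intron and 511 between protein-coding genes. The median distance to the start of a protein-coding transcript was 14621 bp for WT-only sites, 77167 bp for R132H-only sites, 20624 bp for sites in all 8 lists and 24748 bp for all merged sites. No enrichment was tested, and these shares are descriptions of the sites that the rule chose.

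GC and CpG content differed between the WT-only and the R132H-only sites. The median GC content of the 300 bp at the summit was 53.3% (quartiles 46.0 and 62.0%) at WT-only sites and 40% (36.7 and 46.7%) at R132H-only sites, against 48.7% at sites in all 8 lists. The median number of CpGs in this window was 6, 3 and 5, respectively. Windows with 10 or more CpGs made up 32.7% of the WT-only sites, 5.14% of the R132H-only sites, 28.04% of the sites in all 8 lists and 24.7% of all merged sites. A GC content of at least 50% together with an observed-to-expected CpG ratio of at least 0.6, as in a CpG island, was found at 271 WT-only sites (20.1%), 25 R132H-only sites (2.52%), 15.96% of the sites in all 8 lists and 14.7% of all merged sites. The median observed-to-expected CpG ratio was 0.289 at WT-only sites and 0.304 at all merged sites. At promoters the WT-only sites had a median of 24 CpGs and a GC content of 66%, near the 24 CpGs and 65.3% of all merged promoter sites, and elsewhere they had 4 CpGs and 50.7%, against 4 CpGs and 45.7%.

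The share of merged sites that were WT-only was higher at higher GC content, from 0.756% of the sites under 35% GC to 9.26% of those at 65% or more, and the share that were R132H-only was lower, from 9.12% to 0.343%. GC content also moved with the lists as a whole. Over all 20000 peaks of a list, the median GC content was 48.3 to 50.0% in WT +DSB, 46.7 to 47.3% in R132H +DSB, 46.0 to 47.0% in WT −DSB and 47.3 to 48.3% in R132H −DSB. The fold behind the ranks was over a single background value per list. The part of that, of fragment length and of depth in the promoter share and GC content of the WT-only sites was not tested.

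**Figure D2:**
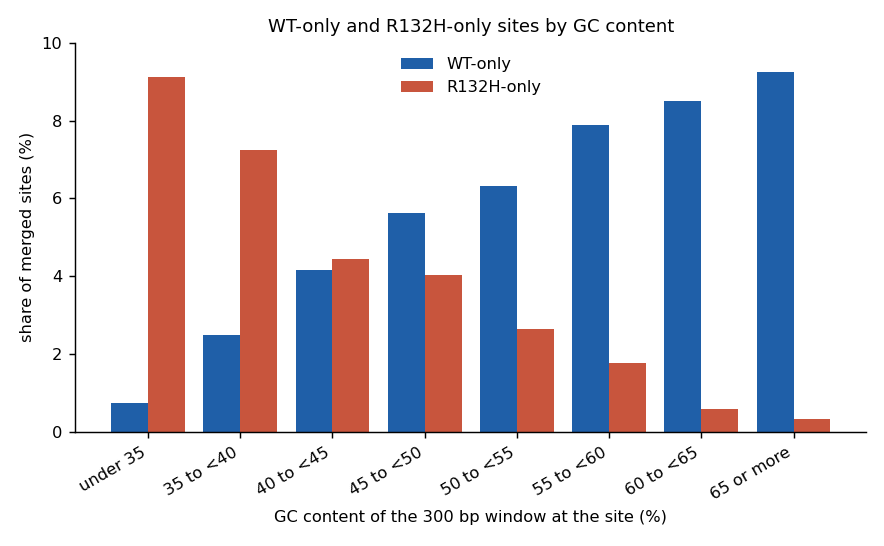
Share of merged sites that were WT-only or R132H-only (y axis, %) in 8 ranges of GC content of the 300 bp window at the site (x axis, %). WT-only bars go up from 0.756% to 9.26% and R132H-only bars go down from 9.12% to 0.343%. Each bar is a single share of merged sites, with no error bar.

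Other short motifs were searched in the same windows on both strands. GGGCGG, the core bound by SP1 and related factors, was in 24.2% of WT-only sites, 4.33% of R132H-only sites, 19.5% of the sites in all 8 lists and 17.7% of all merged sites. TGANTCA, bound by AP-1, was in 7.94%, 9.26%, 7.89% and 7.70%, a far narrower range. CCAAT, bound by NF-Y, was in 26.1% of WT-only sites, 35.5% of R132H-only sites and 31.7% of all merged sites. CCGGAAG, bound by ETS factors, was in 2.97% of WT-only sites, close to the 3.00% of all merged sites, and in 0.403% of R132H-only sites. TGCGCATGC, bound by NRF1, was in 6 WT-only sites (0.445%), 0 of the 993 R132H-only sites and 69 of all merged sites (0.277%). When 1 mismatch to the CTCF core motif was allowed, 52.4% of WT-only, 47.4% of R132H-only and 68.3% of all-8 sites held it, against 59.7% of all merged sites. At promoters, 4.85% of the WT-only sites held the exact CTCF core and 58.6% the SP1 core, against 9.65% and 57.6% of all merged promoter sites.

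The 16 lists that the rule did not use were compared next. A site was called found in a list when it overlapped one of its 20000 strongest peaks. In the lists labelled WT −DSB, 34, 77 and 67 of the 1347 sites were found (2.52, 5.72 and 4.97%). In the lists labelled R132H −DSB, 1195, 1054, 854 and 884 were found (88.7, 78.2, 63.4 and 65.6%). The 2 sets of lists did not overlap, and before DSBs the sites that marked WT cells after DSBs were strong in the lists labelled R132H and weak in those labelled WT. The R132H-only sites showed the opposite, with 89.2, 92.4 and 93.2% found in WT −DSB and 9.87, 23.8, 34.3 and 36.1% in R132H −DSB.

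Over samples, 3.93% ± 1.99 (SD, n = 2) of the WT-only sites were found in WT −DSB and 77.2% ± 12.1 (SD, n = 3) in R132H −DSB, a difference of 73.2 percentage points (two-sided exact permutation test, p = 0.1, the smallest value that 10 arrangements allow, and 0.167 after Benjamini-Hochberg adjustment over 6 tests). With groups taken from the run names inside the lists, the same values gave −73.2 points, that is, more sites found in WT −DSB. The percentage of WT-only minus that of R132H-only sites differed by 141.3 points in the same direction (exact permutation p = 0.1, adjusted 0.167), and by −141.3 points with the run names. No test of this design could pass 0.05. Each WT −DSB list agreed within counting noise with 2 of the R132H +DSB lists (0.800 to 0.976), from which the rule had excluded these sites, and R132H −DSB replicate 1 agreed so with WT +DSB replicate 2, in which the rule had required them. The comparison is therefore no independent check of the rule. Without R132H −DSB replicate 1 the differences were 67.4 and 129.0 points (exact permutation p = 0.333), and no WT −DSB list was free of such agreement.

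Taken over single sites, 576 of the 1347 (42.8%) were in all 4 lists labelled R132H −DSB and in none of the 3 labelled WT −DSB, a pattern shown by 4.01% of the 24368 sites merged from these 7 lists. None of the 1347 showed the reverse pattern, which 2.72% of the merged sites showed. Of the R132H-only sites, 344 (34.6%) were in all WT −DSB and no R132H −DSB lists and 0 showed the reverse. Of the WT-only sites, 137 (10.2%) were in at least 1 WT −DSB list and 1210 (89.8%) in none of them. In no R132H −DSB list were 68 (5.05%). Of the R132H-only sites, 12 (1.21%) were in no WT −DSB list and 457 (46.0%) in no R132H −DSB list. The median relative fold was 0.209 to 0.234 in the WT −DSB lists, near the range of the R132H +DSB lists (0.213 to 0.238), and 0.540 to 0.709 in the R132H −DSB lists.

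**Figure D3:**
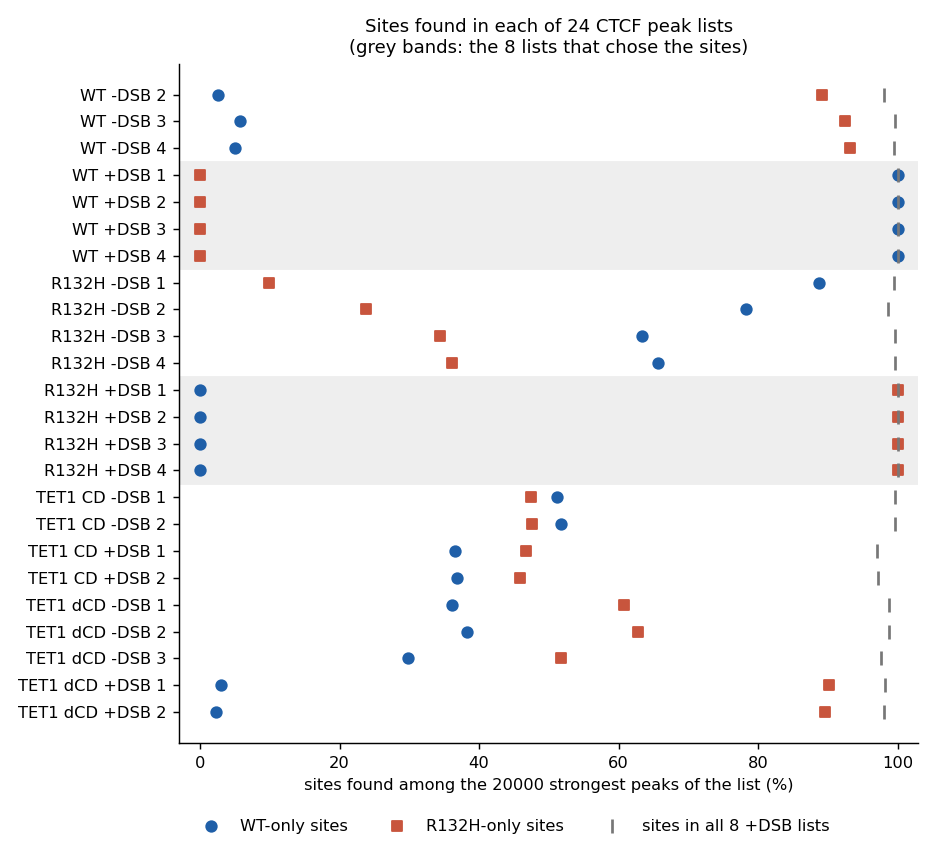
Percentage of WT-only sites (circles), R132H-only sites (squares) and sites in all 8 +DSB lists (ticks) that overlapped one of the 20000 strongest peaks of each of the 24 lists; grey bands mark the 8 lists that chose the sites. The WT-only sites reach 63.4 to 88.7% in the lists labelled R132H −DSB and stay at or below 5.72% in WT −DSB and TET1 dCD +DSB.

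In IDH1 R132H cells with TET1, the lists of the active form held more of the WT-only sites than those of the dead form. TET1 CD +DSB lists held 492 and 496 sites (36.5 and 36.8%) and TET1 dCD +DSB lists held 40 and 30 (2.97 and 2.23%). Without 4-OHT, TET1 CD lists held 690 and 697 (51.2 and 51.7%) and TET1 dCD lists held 487, 515 and 402 (36.2, 38.2 and 29.8%). Both TET1 dCD +DSB lists agreed within counting noise with R132H +DSB replicates 1 and 2 (0.928 to 0.979), in which these sites are absent by the rule, so the contrast with 4-OHT is no independent check either. TET1 dCD −DSB replicate 3 agreed so with both TET1 CD +DSB lists (0.818 and 0.934), so the contrast without 4-OHT is not free of such agreement. For the R132H-only sites, 46.7 and 45.9% were found in TET1 CD +DSB and 90.1 and 89.6% in TET1 dCD +DSB.

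The TET1 CD minus TET1 dCD difference, averaged over −DSB and +DSB, was 26.0 points (exact permutation within treatment, two-sided, p = 0.167, the smallest value that 6 arrangements allow, adjusted 0.167). For WT-only minus R132H-only sites it was 52.4 points (exact permutation p = 0.167, adjusted 0.167). The samples behind it were 51.5% for TET1 CD −DSB (n = 1) against 33.5% ± 5.20 (SD, n = 2) for TET1 dCD −DSB, and 36.7% for TET1 CD +DSB (n = 1) against 2.60% for TET1 dCD +DSB (n = 1), so with 4-OHT there was no replicate check. With 4-OHT the WT-only sites were found less often than without it, by −22.9 points averaged over the 2 constructs (exact permutation p = 0.167, adjusted 0.167), and WT-only minus R132H-only sites by −38.8 points (exact permutation p = 0.167, adjusted 0.167). Grouping by run names kept these directions (27.99, 48.0, −20.9 and −43.2 points, in the order given here).

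Site by site, 403 WT-only sites (29.9%) were in both TET1 CD +DSB lists and in neither TET1 dCD +DSB list, against 9.53% of the 23903 sites merged from these 4 lists. The reverse held for 3 WT-only sites (0.223%), against 8.99%. Without 4-OHT, 72 sites (5.35%) were in all TET1 CD and no TET1 dCD lists, against 0.73% of the merged sites, and 8 (0.594%) showed the reverse, against 0.29%. The corresponding counts of R132H-only sites were 11 (1.11%) and 425 (42.8%) with 4-OHT and 7 (0.705%) and 12 (1.21%) without it.

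Depth and fragment length moved with these percentages. The lists with the shortest fragments, whose shortest peak was 118 to 128 bp, were those of WT −DSB, R132H +DSB and TET1 dCD +DSB. Outside the rule these lists found 2.23 to 5.72% of the WT-only sites, and their estimated depth was 22.7 to 35.1 M reads. The 11 lists outside the rule with a shortest peak of 139 to 194 bp found 29.8 to 88.7%, at 30.8 to 63.2 M reads. The part of fragment length and depth in the differences between groups was not tested, and both cannot be told apart from the groups in the comparisons of WT with R132H cells and of TET1 CD with TET1 dCD cells with 4-OHT.

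**Figure D4:**
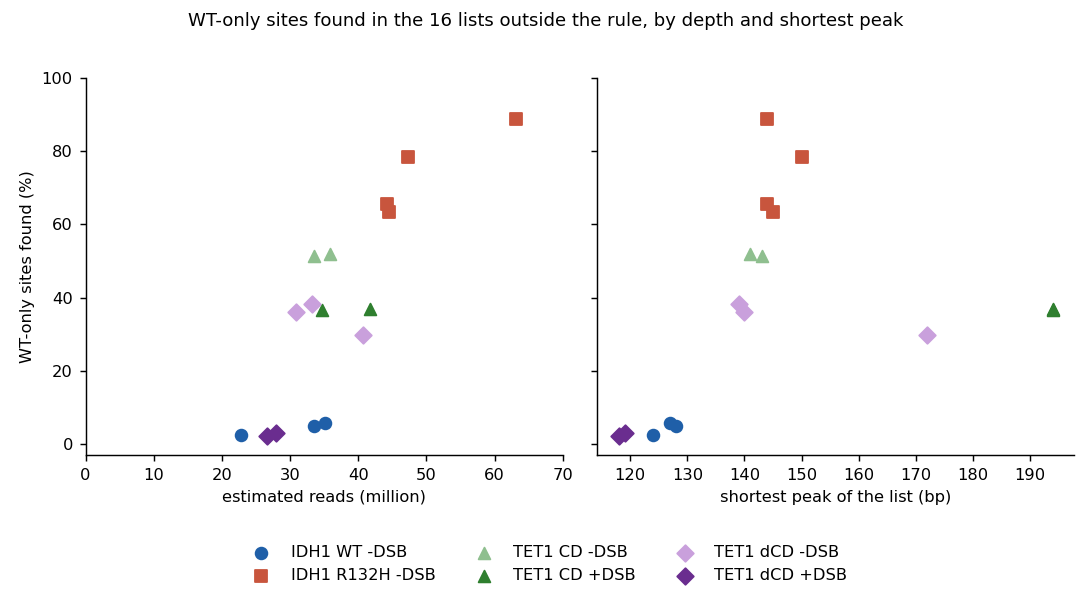
Percentage of WT-only sites found (y axis) in the 16 lists outside the rule, against the estimated depth in M reads (left) and the length of the shortest peak in bp (right), with a marker for each group. The 5 lists with a shortest peak of 118 to 128 bp all lie at or below 5.72%, and the R132H −DSB lists lie at 63.4 to 88.7%.

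Sites at promoters and elsewhere did not follow the same order across lists. In the 2 TET1 CD −DSB lists, 31.7 and 35.4% of the 268 promoter sites were found, against 56.1 and 55.8% of the 1079 others. In the 2 TET1 CD +DSB lists, 46.3 and 45.1% of the promoter sites were found, against 34.1 and 34.8% of the others. In cells with TET1 CD, a higher percentage of promoter sites and a lower percentage of other sites was found with 4-OHT than without it. TET1 dCD −DSB replicates 1 and 2 held 23.5 and 29.1% of the promoter sites and 39.3 and 40.5% of the others. Replicate 3 held 36.2 and 28.3%. It stood apart from these 2 lists and agreed within counting noise with both TET1 CD +DSB lists (0.818 and 0.934). Of the promoter sites, 2 and 0 of 268 were found in the TET1 dCD +DSB lists. The shortest peak moved with this order, at 141 and 143 bp in TET1 CD −DSB, 194 bp in both TET1 CD +DSB lists, 139 and 140 bp in TET1 dCD −DSB replicates 1 and 2 and 172 bp in replicate 3, and its part was not tested. The median GC content of all 20000 peaks was 46.7 to 47.0% in the 4 TET1 CD lists. With 1 sample in each TET1 CD group, the change with 4-OHT has no replicate check.

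**Figure D5:**
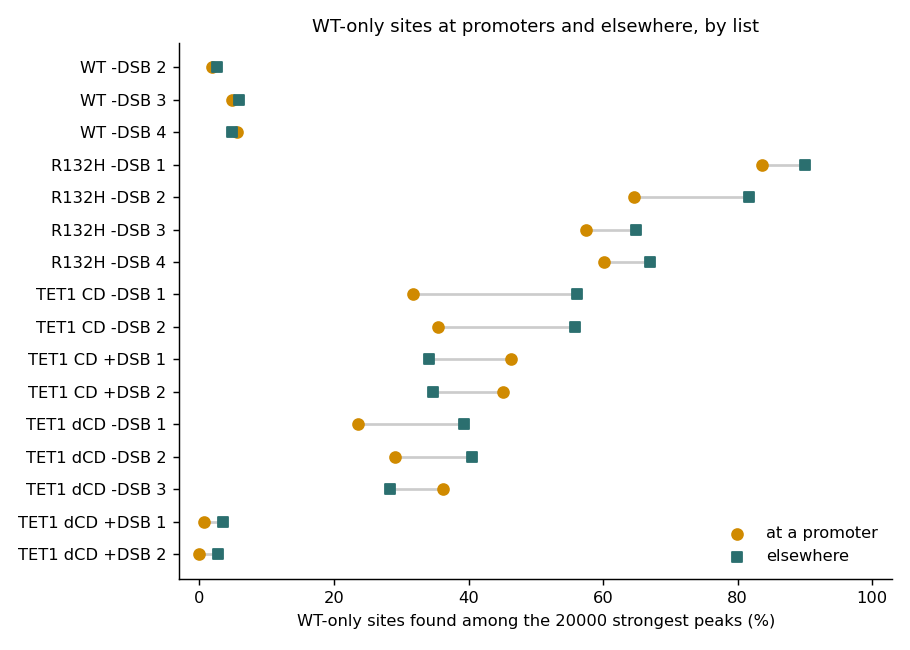
Percentage of the WT-only sites found in each of the 16 lists outside the rule, for the 268 sites at a promoter (circles) and the 1079 elsewhere (squares). Promoter sites lie to the left of the others in TET1 CD −DSB and to the right in TET1 CD +DSB and TET1 dCD −DSB replicate 3.

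Promoters also made up different shares of the sites found in TET1 CD cells only with or only without 4-OHT. In both TET1 CD +DSB lists and neither TET1 CD −DSB list were 121 WT-only sites, or 8.98%, against 7.05% of the R132H-only sites and 6.2% of the 22589 sites merged from these 4 lists. Of the 121, 60 (49.6%) were at promoters, with a median GC content of 60.3% and a median of 15 CpGs. Of the 960 sites with this pattern among all 24944 merged sites, 26.7% were at promoters. In both TET1 CD −DSB lists and neither TET1 CD +DSB list were 269 WT-only sites (19.97%), against 7.05% and 6.03%. Of these, 30 (11.2%) were at promoters, with a median GC content of 52.3% and 6 CpGs, against 6.37% of the 1302 merged sites with this pattern. Of all 1347 sites, 31 (2.30%) were in none of the 16 lists and 0 in all of them, against 3 and 32 of the 993 R132H-only sites. The rule bears on these counts, since the WT −DSB and TET1 dCD +DSB lists agreed within counting noise with R132H +DSB lists.

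The strongest promoter site was that of JUP, which encodes plakoglobin of cell junctions (chr17:41785236-41788032). Its fold over background was 50.8, 36.7, 50.1 and 58.5 in WT +DSB replicates 1 to 4 and 7.14, 7.75, 10.5 and 11.1 in R132H +DSB. Without 4-OHT it was 5.87, 9.43 and 9.28 in the lists labelled WT and 45.8, 33.7, 38.0 and 39.3 in those labelled R132H. With 4-OHT the rule itself set WT and R132H apart at this site, so that difference is no result. Without 4-OHT the folds were higher in the lists labelled R132H. The WT −DSB lists, however, agreed within counting noise with R132H +DSB lists, from which the rule had excluded the site. In TET1 CD cells the fold was 28.5 and 37.9 −DSB and 14.1 and 15.3 +DSB, and in TET1 dCD cells it was 14.6, 21.4 and 14.8 −DSB and 4.93 and 4.16 +DSB. Folds are not on the same scale across lists, at this and every other named site. The folds of 14.6 and 14.8 in TET1 dCD −DSB replicates 1 and 3 were ranks 18853 and 26886. The fold at rank 20000 ran from 13.5 in TET1 dCD −DSB replicate 1 to 30.3 in TET1 CD +DSB replicate 2.

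The promoter site of RASAL1, an inhibitor of Ras, had folds of 51.3, 35.9, 48.7 and 55.4 in WT +DSB and 7.14, 7.27, 11.7 and 13.4 in R132H +DSB. It was found in the R132H −DSB lists at ranks 2843, 3656, 8430 and 7683 and in the TET1 CD −DSB lists at 14143 and 11769, and in TET1 CD +DSB its ranks were 42411 and 40612. The promoter of NMUR1, a neuromedin U receptor (chr2:231529665-231531464), ranked 5692, 5373, 2997 and 1641 in WT +DSB and 33477, 25769, 20086 and 20607 in R132H +DSB, so its strongest R132H rank lay close to the limit of 20000. TGM2, a transglutaminase, ranked 7721, 5731, 5217 and 4170 in WT +DSB and 33065, 49675, 28458 and 29929 in R132H +DSB, farther from it.

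The 10 strongest promoter sites fell into 2 patterns in TET1 CD +DSB. JUP, RASAL1, NMUR1, TGM2 and NPEPL1 (related to aminopeptidases) were in neither TET1 CD +DSB list. C17orf113, SAMD3 with TMEM200A, POLM, NTRK2 and GALNT16 were in both. POLM, the DNA polymerase mu of end joining (chr7:44080639-44083285), had folds of 43.7, 33.7, 46.6 and 53.6 in WT +DSB, 10.5, 10.2, 13.3 and 13.4 in R132H +DSB, 33.0 and 36.3 in TET1 CD +DSB and 8.52 and 6.47 in TET1 dCD +DSB. NTRK2, the receptor of brain-derived neurotrophic factor (chr9:84667479-84670723, in an untranslated region), ranked 14544 and 16316 in TET1 CD +DSB and 22265 and 27341 in TET1 dCD +DSB. GALNT16, an enzyme that starts O-glycosylation (chr14:69256705-69272662), was the widest of the 10 at 15958 bp and had an AsiSI sequence 4317 bp from its summit. All 10 were in the 4 lists labelled R132H −DSB and none was in the TET1 dCD +DSB lists. In the WT −DSB lists, NTRK2 was found in 1 list, at rank 19595, and the other 9 in none. Of all 268 promoter sites, 57.5 to 83.6% were found in the R132H −DSB lists, 1.87 to 5.60% in WT −DSB and 2 and 0 sites in TET1 dCD +DSB. The WT −DSB lists, both TET1 dCD +DSB lists and R132H −DSB replicate 1 agreed within counting noise with lists that chose the sites. The pattern of the 10 is therefore no independent check.

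The strongest WT-only site of all lay in an intron of TTC28 (chr22:28440332-28443934) and is named after its values were seen, with ranks of 1105, 1573, 517 and 539 in WT +DSB, 23794, 40758, 24008 and 23560 in R132H +DSB and 2145, 1772, 4751 and 2395 in R132H −DSB. Over 1000 bp from any gene start, the strongest site lay 67519 bp from L3MBTL4, a chromatin reader (chr18:6482089-6483826). Its ranks were 1819, 3355, 2122 and 1547 in WT +DSB and 22585, 23944, 23964 and 23512 in R132H +DSB. It was found in every list of R132H −DSB (3601, 3387, 7409 and 4000), TET1 CD −DSB (10581 and 10233), TET1 CD +DSB (14830 and 15137) and TET1 dCD −DSB (14566, 11365 and 18299), and in no WT −DSB or TET1 dCD +DSB list. A site 7198 bp from UNCX, a homeobox gene (chr7:1225020-1226920), ranked 2359, 1195, 4434 and 4128 in WT +DSB and 1148, 1061, 2633 and 5688 in R132H −DSB, so these ranges overlapped, and 28374 and 32505 in TET1 CD +DSB. In an intron of PPARGC1B, a coactivator of nuclear receptors (chr5:149836394-149839473), the folds were 50.8, 35.9, 48.9 and 55.7 in WT +DSB and 9.52, 8.24, 11.7 and 11.1 in R132H +DSB.

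Near ABCC3, an efflux transporter (chr17:50629682-50632216), a strong WT site was a member by a narrow margin, since its R132H +DSB ranks were 22094, 22747, 21604 and 20009. Near TEX51 (chr2:126885618-126887382), WT −DSB replicate 4 (18588) and both TET1 dCD +DSB lists (19246 and 18048) held a site whose R132H +DSB ranks were 24539, 20466, 20571 and 20086. It was the only one of the 10 strongest sites away from gene starts that was found in a TET1 dCD +DSB list. The sites near UACA, KCNA10 (a potassium channel), SPTB (beta-spectrin), SLC29A1 (a nucleoside transporter) and STC2 (stanniocalcin 2) completed these 10, and each had mean ranks of 2386 to 4574 in WT +DSB.

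The 10 strongest sites with the CTCF core had mean WT +DSB ranks of 4347 to 6951. The first was the site at SLC29A1, whose summit was 4 bp from the motif. The next, near KSR1, a scaffold of the Raf and MEK kinases (chr17:27379605-27382734), had folds of 45.3, 34.9, 46.5 and 55.04 in WT +DSB, 5.23, 5.81, 9.36 and 8.79 in R132H +DSB and 41.2, 36.4, 35.7 and 34.2 in R132H −DSB. The site near ANO1, a chloride channel (chr11:69908966-69911723), ranked 4003, 5547, 6724 and 5338 in WT +DSB and 24178, 24490, 21232 and 22759 in R132H +DSB. A site in an intron of KALRN, for which UMPS was the nearest gene start (chr3:124492209-124493906), was in 13 of the 16 lists outside the rule, the most of the 10 strongest sites with the motif, and its R132H +DSB ranks of 21322, 21412, 20097 and 21424 were all just past the limit. The sites near TRAM2, at another intronic position in SPTB, near GRAMD1B and RNF182, at the promoter of SEMA4G (a semaphorin) and in TBC1D16 followed, and of these 6 only TBC1D16 was found in TET1 CD +DSB.

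AsiSI sequences were rare near the sites. The reference held 1228 of them, and 27 WT-only sites (2.00%) had a summit within 10 kb of one, compared with 1.42% of all merged sites, 1.63% of the sites in all 8 lists and 6 R132H-only sites (0.604%). Within 1 kb there were 5 (0.371%), near the 0.313% of all merged sites and the 0.311% of the sites in all 8 lists. These 5 were at the promoters of GABBR2, SDK2, TMEM51, CTNND2 and MYLIP. GABBR2, a GABA-B receptor subunit (chr9:98706705-98708179, in an untranslated region), was the nearest at 64 bp. Its folds were 33.1, 21.2, 39.1 and 43.5 in WT +DSB, 6.66, 3.39, 8.58 and 8.41 in R132H +DSB, 5.38, 3.39 and 6.57 in WT −DSB and 25.4, 17.9, 20.3 and 19.6 in R132H −DSB. It was in neither list of TET1 CD with or without 4-OHT.

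SDK2, a cell adhesion protein (chr17:73642347-73647209), was 287 bp from an AsiSI sequence. Its ranks were 15684, 19449, 8815 and 7278 in WT +DSB and 40261, 40035, 24780 and 27459 in R132H +DSB, and it was found in TET1 CD +DSB (14587 and 17753) and not in TET1 CD −DSB (23179 and 25949). The promoters of MYLIP, which targets the LDL receptor for degradation (chr6:16128367-16130388), and CTNND2, delta-catenin (chr5:11902912-11905287), showed the same pattern, with ranks of 14772 and 16057 (MYLIP) and 19321 and 18605 (CTNND2) in TET1 CD +DSB and of 21648 and 22356 (MYLIP) and 25716 and 22874 (CTNND2) in TET1 CD −DSB. SDK2, MYLIP and CTNND2 were also found in TET1 dCD −DSB replicate 3, at 18553, 15679 and 19943, and MYLIP in the other TET1 dCD −DSB lists as well, at 19072 and 19730. Replicate 3 agreed within counting noise with both TET1 CD +DSB lists. The sites at the promoter of GINM1, in AKIP1, in NAA40, near NT5C1B and in an intron of ERCC1, a nuclease subunit of excision repair, were 1040 to 1440 bp from an AsiSI sequence, and that in ERCC1 (chr19:45426745-45429646) had WT +DSB ranks of 17091, 15382, 15335 and 14131 and R132H +DSB ranks of 22139, 25557, 23253 and 21590.

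The promoter of CTCF was the only member in the gene lists. Of the 14 genes for CTCF, cohesin and their partners, 1 had a WT-only site at its promoter (7.14%), against 294 of all 19702 protein-coding genes (1.49%), and 6 had any merged site there. No WT-only or R132H-only promoter site was at the 15 genes for DNA methylation and IDH or the 46 for homologous recombination and damage signalling. Of these genes, 3 and 11, respectively, had a merged site. Over all protein-coding genes the shares were 1.49% for WT-only and 0.142% for R132H-only sites, so absence from lists this short says little. At the CTCF promoter (chr16:67561580-67563884) the folds were 27.6, 20.8, 34.8 and 40.4 in WT +DSB, 11.4, 8.24, 15.6 and 13.4 in R132H +DSB, 6.85, 13.2 and 14.7 in WT −DSB and 26.3, 14.9, 18.0 and 22.6 in R132H −DSB. In TET1 CD cells they were 43.6 and 50.8 with 4-OHT, ranks 13867 and 10881, and 13.7 and 17.1 without it. In TET1 dCD cells they were 7.62 and 5.55 with 4-OHT and 11.2, 9.97 and 37.3 without it. The last was in the replicate that agreed within counting noise with both TET1 CD +DSB lists.

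The nearest protein-coding genes were spread widely. The 1347 sites had 1248 different nearest genes, of which 85 had 2 or more sites and 11 had 3 or more. RPIA, ribose-5-phosphate isomerase of the pentose phosphate pathway, had the most at 6. The 5 strongest sites in none of the 16 other lists were near NPAS2, a clock transcription factor, at the shared promoter of GALNT4 and POC1B, in an intron of TNRC18, near DNAJB12 (a chaperone partner) and in SPATA20. At GALNT4 and POC1B (chr12:89524249-89526633) the ranks were 15569, 18195, 13713 and 12295 in WT +DSB, 20111, 25794, 22533 and 24294 in R132H −DSB and 20826 and 20180 in TET1 CD +DSB, so several lists missed the limit narrowly.

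Membership depended strongly on how many peaks were taken. With the 10000 strongest peaks of each list the rule gave 1010 sites, which overlapped 71 of the 1347 (5.27%), and with the 50000 strongest it gave 5285, which overlapped 30 (2.23%).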

How the data were processed

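CTCF ChIP-seq was measured in 24 peak lists of 8 groups, 1 list per sample, and the 4C-seq samples of the series were not analysed here. The authors mapped reads to hg38 and called peaks in each sample with MACS2, and the submitters' notes name Bowtie2 2.3.4.1, cutadapt 1.18 and deepTools. The lists give, as deposited by the authors, a fold over background at the summit, a −log10 p and −log10 q, and a display score that was not used. Fold values carry 1 pseudoread in numerator and background, and they follow depth, so lists were compared by rank. Folds given for named sites are descriptions. The fold values lay at whole-read steps over a single background value per list (98.1% of the values examined in WT +DSB replicate 3 and 100% in the others). A local or input correction was thus not visible in them, although the paper reports that peaks were called with input as the control.

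The 20000 peaks of highest fold were kept per list, with ties broken by genome order, and merged at 1 shared bp. CpG, GC and motifs were read in 300 bp at the mean summit, and promoters within 1000 bp of a protein-coding transcript start (GENCODE 44). Members, gene lists and the named sites (the 10 strongest at promoters, over 1000 bp from any gene start and with the CTCF core, the 10 nearest to AsiSI sequences, those in the gene lists, and 5 found in no other list) were chosen with earlier results of these data known. Lists were compared at shared summits with a mean of at least 30 reads, within 60 bp, among the 50000 strongest peaks. This read limit was chosen after 3 windows had been seen. Groups followed the labels. Percentages found were compared by exact two-sided permutation tests over samples, adjusted over 6 tests, and the steps were checked on simulated data. Relative fold, the CTCF core with 1 mismatch, GC ranges, rank bands, presence patterns and 10 Mb windows were added after values had been seen. Python 3.11.15, NumPy 2.4.6, pandas 2.3.3, SciPy 1.17.1, pyfaidx 0.9.0.4 and matplotlib 3.10.9 were used.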

Additional observations from a re-analysis of the deposited data

How the results depend on the processing

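The number of WT-only sites was 1347, and it was 5285 with the 50000 strongest peaks per list, 1010 with the 10000 strongest and 1385 to 1665 without any 1 of the 8 lists, where at least 1346 of the sites were kept. Leaving out a list only removes a condition of the rule, so the sites were kept by construction and this says nothing about stability. With groups from the run names, the R132H minus WT difference without DSBs turned from 73.2 to −73.2 points, and that for WT-only minus R132H-only sites from 141.3 to −141.3 points. With every list as its own sample, all 6 tests passed 0.05 (exact permutation, adjusted p 0.025 to 0.0286), with differences of 69.6 and 135.2 points for R132H minus WT, 25.4 and 52.6 points for TET1 CD minus TET1 dCD and −23.5 and −38.6 points for 4-OHT minus untreated. That count treats lists that differed by no more than counting noise as separate samples, so its p-values overstate the evidence. Without single lists the differences ranged over 67.4 to 73.6, 129.0 to 141.7, 24.2 to 26.3, 52.1 to 53.1, −24.7 to −22.6 and −39.1 to −38.1 points, in the same order. Same-numbered lists did not deviate together (r −0.0994 to 0.151 over 11 pairs). In groups of 2 lists the deviations mirror each other, and those lists count as 1 sample, so a pairing could not be seen there. Whether the numbers pair the samples was therefore not settled. A replicate block gave 64.7, 124.9, 24.2, 53.1, −24.7 and −38.1 points with no call passed (exact permutation p 0.25, 0.25 and 0.125 for the others). Counting a site as found at any deposited peak reduced the differences to 2.39, 2.56, 1.17, 1.22, −1.47 and −1.42 points, and at −log10 q of at least 10 to 25.1, 27.2, 21.8, 21.7, −21.0 and −21.3 points. With 10000 peaks per list the differences were 72.7, 135.6, 21.7, 38.8, −13.4 and −21.4 points, and with 50000 they were 68.98, 120.9, 39.3, 77.8, −20.9 and −27.7 points, for the sites that each rule then chose. Deciding on 1 sample from summits of 20 to 50 reads, chosen after seeing the data, gave 74.97 and 145.4 points for R132H minus WT, and summits of 50 to 400 reads changed no value. The other alternatives kept direction and side of the threshold, which says little about stability since these tests could not pass it.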

Other observations

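The WT-only sites were unevenly spread over the chromosomes, as values chosen after seeing the data. They made up 8.03% of the merged sites on chromosome 2 and 7.52% on chromosome 17, and 1.84% on chromosome 4, 2.17% on chromosome X and 2.90% on chromosome 13. The R132H-only sites made up 12.5% on chromosome X, 8.71% on chromosome 13 and 7.18% on chromosome 4, and 1.35% on chromosome 2. Over 269 windows of 10 Mb with at least 40 merged sites, the median share of WT-only sites was 4.85%, the highest was 17.7% and 30 windows held none. The part of the single background value per list in this spread was not tested.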
